A study of Mustela putorius furo and Mus musculus with 4 samples.

Results

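A set of 8 genes that mark outer or truncated radial glia (RG) cells was followed through the mouse and ferret cortex. Of these, 7 are outer RG genes (*Hopx*, *Tnc*, *Ptprz1*, *Fam107a*, *Lifr*, *Il6st* and *Moxd1*), and *Cryab* is a truncated RG gene. They were chosen by symbol, as the 8 rows with these names among the 17170 genes of the mouse table and the 8 rows with the upper-case names among the 22008 genes of the ferret table.

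RG cells are the stem cells of the embryonic cortex. Their cell bodies line the ventricle, and a long basal fibre reaches the pial surface. In gyrated brains some RG cells lose the apical contact and move outwards, where they are called outer RG cells. The RG cells left at the ventricle then lose their basal fibre and are called truncated RG cells. *Hopx* encodes a small homeodomain protein that binds no DNA itself and acts through partner factors. *Tnc* encodes tenascin C, an extracellular matrix glycoprotein, and *Ptprz1* encodes a receptor-type tyrosine phosphatase whose extracellular part binds tenascins and the growth factors pleiotrophin and midkine. *Il6st* encodes gp130, the signalling chain shared by the interleukin-6 family of cytokines. *Lifr* encodes the receptor for leukaemia inhibitory factor, which pairs with gp130 and signals through JAK kinases and STAT3. *Fam107a* encodes a small actin-associated protein. *Moxd1* encodes a protein related to copper-dependent monooxygenases, and *Cryab* encodes alphaB-crystallin, a small heat shock protein that keeps other proteins soluble.

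The mouse cells came from E18 cortex of CD1 animals, 1 library for each genotype. The control was the Smo F/F littermate, which the labels call wild type. In the Smo-cKO, hGFAP-Cre;Smo F/F, a Cre driven by a human GFAP promoter deletes the floxed *Smo* gene, the transducer of Sonic hedgehog (SHH), in RG cells and thereby in the cells they produce. Both genotypes carried the floxed allele, both received a fluorescent dye (CellTrace Yellow) into the lateral ventricle at E17, and the libraries were made from cells sorted a day later, so that cells that had lined the ventricle and their recent progeny were favoured. The number of embryos behind each mouse library was not given in the sources used here. The ferret cells were wild type, from the cortex of 1 E39 embryo, without dye or sorting, and carried 2 barcode sets that were not tied to the 2 labelled samples. With 1 library for each genotype and 1 ferret embryo there was no replicate check and no test. All intervals are exact 95% intervals that cover counting error only.

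After the filter on cells, 10498 control and 7209 Smo-cKO cells remained, with a median of 4033.5 and 4836 UMIs (unique molecular identifiers, counts of captured RNA molecules). The shallowest control cell held 2454 UMIs and the shallowest Smo-cKO cell 1068. The ferret sets held 10185 and 13052 cells with a median of 2556 and 3563 UMIs. Of the barcodes, 28 of 18120 in the mouse and 38 of 23482 in the ferret occurred in both libraries or sets, and no doublets were removed. Levels are given in CPM, the UMIs of a gene scaled to 1000000 UMIs of the same cells. *Smo* UMIs numbered 402 in the control and 20 in the Smo-cKO (CPM ratio 0.0611, interval 0.0369 to 0.0956), although 3' tags may lie outside the deleted part. *Gli1* (135 and 2 UMIs) and *Ptch1* (732 and 93 UMIs), both targets of the pathway, were lower as well. Cells were clustered without the 8 genes, and marker lists gave the clusters their names. In the mouse the non-cycling RG-like cells were clusters 4 and 5, with 1495 control and 1182 Smo-cKO cells. In the ferret they were cluster 9, with 437 cells of set 1 and 544 of set 2. A cluster was set aside as cycling when it had 5 of 12 cycling markers. That limit was chosen after the clusters were seen, and it kept ferret cluster 18 (436 RG-like cells) out of the non-cycling class. Nothing measured here says where in the tissue a cell lay, so RG-like cells could not be divided into outer, truncated and ventricular cells.

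In GRCm38 with the GENCODE M21 annotation, *Hopx* (ENSMUSG00000059325) spans chr5:77086988-77115121 on the minus strand and *Tnc* (ENSMUSG00000028364) chr4:63959785-64047015 on the minus strand. *Ptprz1* (ENSMUSG00000068748) spans chr6:22875502-23052916 and *Moxd1* (ENSMUSG00000020000) chr10:24223517-24302790, both on the plus strand. *Lifr* (ENSMUSG00000054263) spans chr15:7090614-7197489, *Il6st* (ENSMUSG00000021756) chr13:112464070-112510086 and *Cryab* (ENSMUSG00000032060) chr9:50751325-50756636, all on the plus strand. *Fam107a* (ENSMUSG00000021750) spans chr14:8296274-8318023 on the minus strand. All 8 are protein-coding genes, each on a chromosome of its own.

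The 8 genes fell into 3 abundant members and 5 sparse ones in both species. *Hopx*, *Tnc* and *Ptprz1* each had a UMI in most RG-like cells, and the other 5 had a UMI in under 20% of them, in both mouse libraries and both ferret sets. *Fam107a* was close to undetected. It had 7 UMIs in all 17707 mouse cells, all of them in the Smo-cKO, and its ferret counterpart had 9 UMIs in 23237 cells. In control RG-like cells none of the 1495 cells held a UMI of it (0, so that a share up to 0.201% is possible). The level of this outer RG gene in those cells had an interval of 0 to 0.503 CPM. Whether it was absent or missed at this depth was not tested.

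*Hopx* was highest in RG-like cells of the control, at 610 CPM (592 to 628). Cycling RG-like cells followed at 544 CPM (527 to 561) and unnamed cluster 8 at 364 CPM (341 to 389), with no overlap between these neighbours. Cluster 8 was led by *Hbb-bs*, *Igfbp5*, *Hes5* and *Aldoc*, with *Tnc* and *Ptprz1* also among its leading genes. It reached too few markers of any type to be named. Below them came endothelial-like cells at 151 CPM and the cycling clusters of basal multipotent intermediate progenitor (bMIPC)- and oligodendrocyte lineage-like cells at 118 CPM, whose intervals overlapped. Intermediate progenitor (IPC)-like cells held 87.7 CPM (79.2 to 96.9) and pyramidal neuron (PyN)-like cells 17.5 CPM (15.4 to 19.9). *Hopx* therefore marked RG-like cells by level, while its level in endothelial-like cells came from only 46 UMIs in 36 cells.

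*Tnc* and *Ptprz1* had another order at the top. *Tnc* was highest in cycling RG-like cells at 481 CPM (465 to 497), ahead of the non-cycling ones at 410 CPM (395 to 425) and cluster 8 at 286 CPM (266 to 308). PyN-like cells held 4.68 CPM of *Tnc*. *Ptprz1* stood at 1824 CPM (1793 to 1855) in cycling and 1719 CPM (1689 to 1749) in non-cycling RG-like cells and at 1273 CPM in cluster 8. The non-cycling cells pool a cluster below cluster 8 and a cluster above it. Cluster 4 held 161 CPM of *Tnc* and 923 CPM of *Ptprz1* in the control, and cluster 5 held 769 and 2870 CPM. A cluster of 12 control cells led by *Pdgfra* and *Sox10*, genes of oligodendrocyte precursors, held 1128 CPM of *Ptprz1* (913 to 1379), which overlapped cluster 8. *Ptprz1* was also widely detected outside RG-like cells, at 455 CPM in the cycling bMIPC- and oligodendrocyte lineage-like cells and 112 CPM in PyN-like cells.

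None of the other 4 sparse members was highest in RG-like cells of the mouse control. *Cryab* was highest in Cajal-Retzius-like cells, the early neurons of the marginal zone, with 24 UMIs in 19 control cells (147 CPM, 94.2 to 219), and RG-like cells followed with 160 UMIs (21.8 CPM, 18.6 to 25.5). *Lifr* was likewise highest in Cajal-Retzius-like cells (11 UMIs, 67.4 CPM, 33.7 to 121), and RG-like cells held 30 UMIs (4.09 CPM). *Il6st* was highest in mural-like cells (10 UMIs, 87.1 CPM) and microglia-like cells (31 UMIs, 31.3 CPM), with overlapping intervals, and RG-like cells held 115 UMIs (15.7 CPM, 13.0 to 18.8). *Moxd1* had 4 UMIs in the *Pdgfra*- and *Sox10*-led cells (47.5 CPM) and 14 UMIs in RG-like cells (1.91 CPM). These classes were small, with 12 to 97 control cells, so their order rests on few UMIs.

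**Figure D1:**
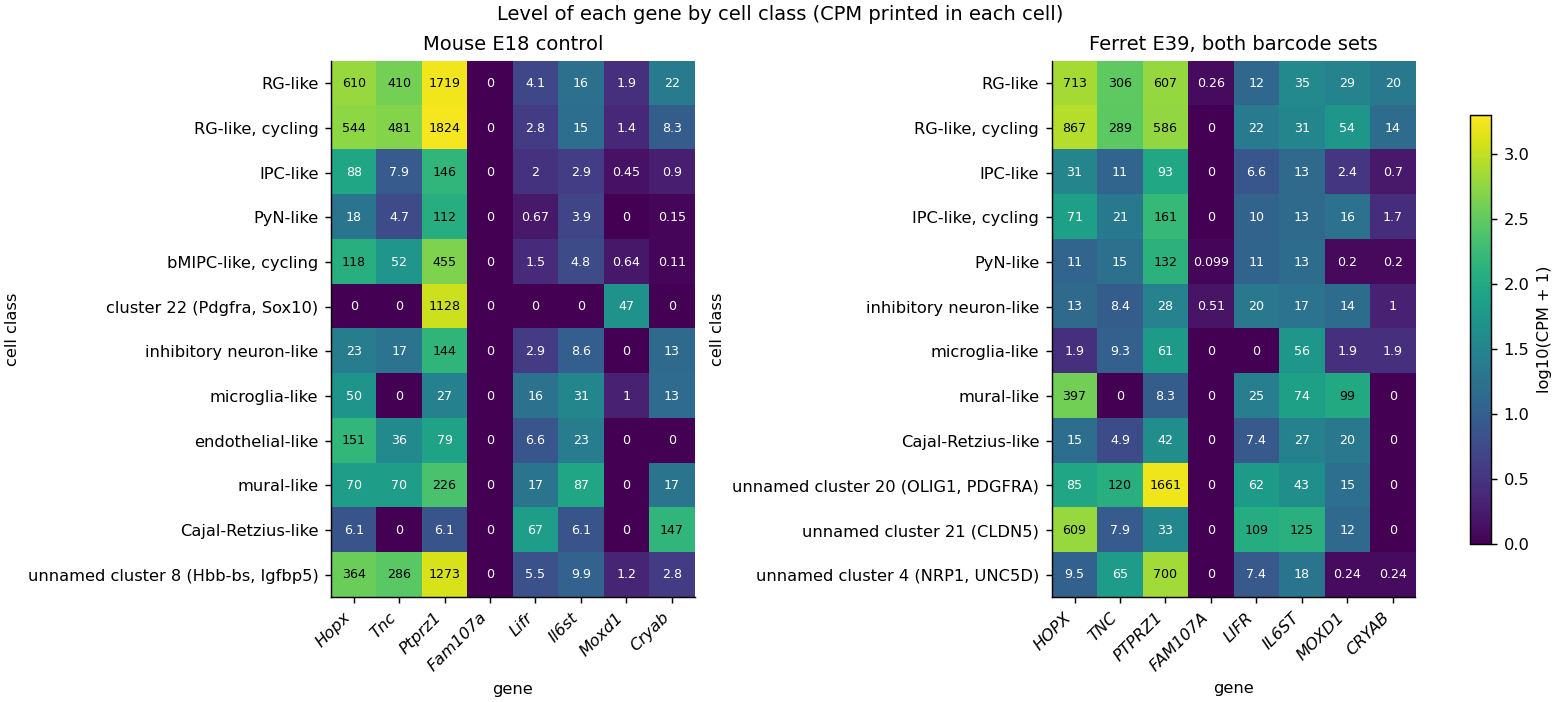
Level of each of the 8 genes (columns) by cell class (rows) in the mouse control library and in both ferret barcode sets together, with the CPM printed in each box and its colour on a scale of log10(CPM + 1). *Hopx*, *Tnc* and *Ptprz1* are high across RG-like and cycling RG-like cells in both species, and *Fam107a* is near 0 everywhere.

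Against PyN-like cells, 5 of the 5 members with at least 50 UMIs in both classes together were at least 2-fold higher in control RG-like cells, where 17.7% of all genes with that many UMIs were. The CPM ratio was 34.8 for *Hopx* (30.5 to 39.8), 87.5 for *Tnc* (68.2 to 114), 15.3 for *Ptprz1* (14.5 to 16.2) and 4.06 for *Il6st* (2.90 to 5.75). For *Cryab* it was 147 (40.0 to 1223), from 160 UMIs against 2. In the Smo-cKO, 6 of 6 members were past the same fold, against 18.3% of all genes, and the ratios were 36.9 for *Hopx* (33.2 to 41.3), 94.5 for *Tnc* (76.6 to 118) and 18.7 for *Ptprz1* (17.6 to 19.9). *Lifr*, the member added there, had 57 UMIs in RG-like cells and 0 in 3089 PyN-like cells, where a share up to 0.0971% is possible. *Cryab*, and *Lifr* in the Smo-cKO, reached the UMI minimum only through RG-like cells, so their place in these counts follows from that filter. Clusters are built from genes that vary with these, so these ratios and counts describe the classes and are no test.

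Shares of cells with a UMI gave the same division between abundant and sparse members. In the control, 62.9% of RG-like cells had a UMI of *Hopx* (60.4 to 65.3), 61.3% of *Tnc* (58.7 to 63.7) and 94.6% of *Ptprz1* (93.4 to 95.7), against 5.43%, 1.56% and 25.3% of PyN-like cells, with median depths of 4526 and 3174 UMIs. *Cryab* had a UMI in 7.63% of RG-like cells (6.33 to 9.09) and 0.0538% of PyN-like cells. Microglia-like cells, at a median of 8258 UMIs, held it in 9.28% (4.33 to 16.9), but at 2900 UMIs the order turned, with 4.82% of RG-like and 3.42% of microglia-like cells. *Lifr* and *Il6st* had higher shares in microglia-like cells (11.3% and 22.7%) than in RG-like cells (2.01% and 7.42%), also at 2900 UMIs (4.34% and 7.31% against 1.22% and 4.34%), and both are receptors that immune cells use.

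In the ferret, *HOPX* was again among the genes of RG-like cells. Cycling RG-like cells (cluster 18) held 1023 CPM in set 1 and 755 CPM in set 2, and non-cycling RG-like cells (cluster 9) 768 CPM (723 to 815) and 680 CPM (647 to 714). Set 1 was thus higher in both clusters. An unnamed cluster led by *CLDN5*, a tight junction gene of blood vessels (cluster 21, 182 cells), followed with 532 CPM in set 1 and 695 CPM in set 2. Mural-like cells held 48 UMIs in 30 cells (397 CPM, 293 to 526), and the next class, unnamed cluster 20, stood at 85.3 CPM. Ferret *HOPX* was therefore shared between RG-like and vascular clusters, at levels in the cluster of 182 cells (609 CPM, 565 to 656) not far below those of RG-like cells (713 CPM, 687 to 741).

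*TNC* was more restricted than *PTPRZ1* in the ferret. *TNC* stood at 270 CPM in set 1 and 327 CPM in set 2 of the RG-like cells, and at 250 and 317 CPM in the cycling ones. The next cluster was cluster 20 (190 cells), an unnamed cluster with *OLIG1* and *PDGFRA*, at 114 and 124 CPM. *PTPRZ1* was highest in that same cluster, at 1161 CPM in set 1 and 1885 CPM in set 2, where 87.3% and 99.2% of the cells had a UMI. Cluster 4, 1434 cells led by *NRP1* and *UNC5D* and unnamed, held 668 and 717 CPM of *PTPRZ1*, which was above the RG-like cells at 541 CPM (503 to 580) and 648 CPM (615 to 681). In cluster 4 *HOPX* stood at only 13.8 and 7.27 CPM. *PTPRZ1* alone therefore did not set RG-like cells apart from the other ferret clusters.

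**Figure D2:**
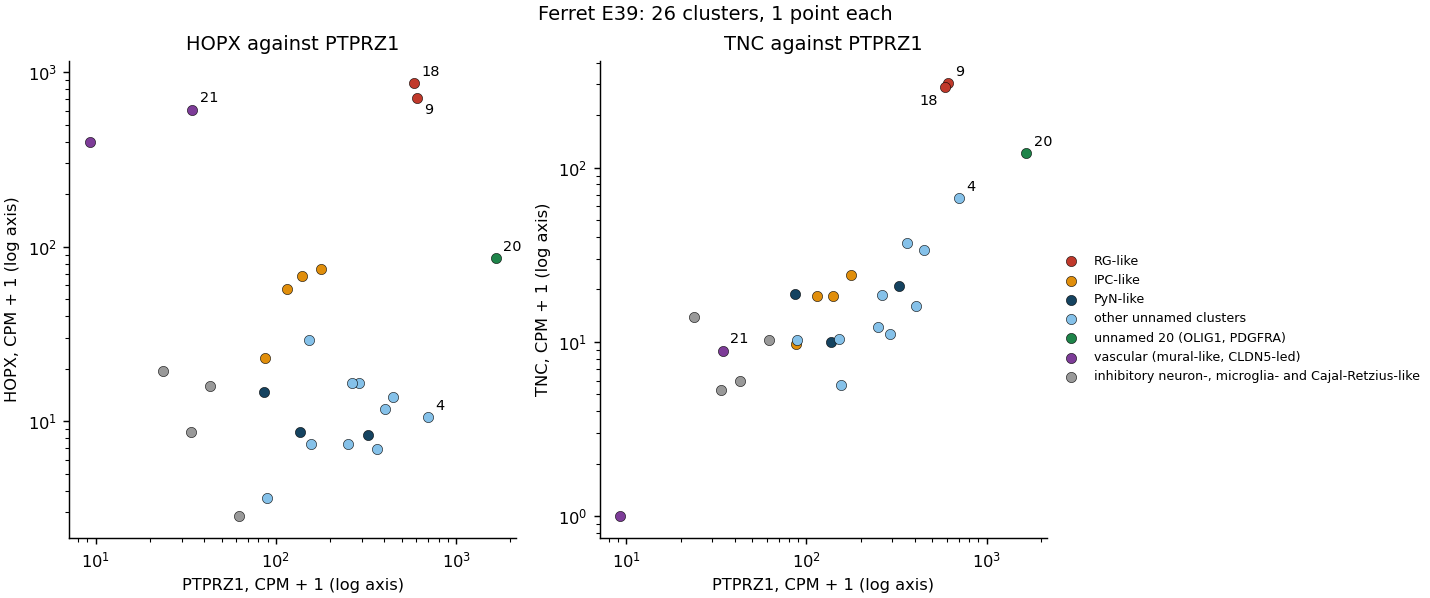
Ferret clusters, 1 point for each of 26, by *PTPRZ1* level (x axis, CPM + 1, log scale) and by *HOPX* or *TNC* level (y axis, CPM + 1, log scale), coloured by class and numbered where named in the text. RG-like clusters 9 and 18 are high on both axes in both panels, cluster 20 lies farthest to the right, and the vascular clusters are high for *HOPX* alone.

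*MOXD1* and *CRYAB* were sparse in the ferret, and *CRYAB* was the more restricted to RG-like cells. *MOXD1* had 39 UMIs in set 1 and 70 in set 2 (27.2 and 29.9 CPM) of non-cycling RG-like cells, and 44 and 72 UMIs (49.1 and 58.0 CPM) of cycling ones, where 17% and 22.5% of the cells had a UMI. Mural-like cells (12 UMIs, 99.2 CPM) stood above them with an overlapping interval. Of all 441 *MOXD1* UMIs, the non-cycling RG-like cells held 109 and the cycling ones 116. Of the others, 66 were in cycling IPC-like cells (16.4 CPM) and 54 in inhibitory neuron-like cells (13.7 CPM), and Cajal-Retzius-like cells stood at 19.7 CPM from 8 UMIs. *CRYAB* was highest in RG-like cells, with 30 and 47 UMIs (20.9 and 20.0 CPM), ahead of the cycling ones with 13 and 16 UMIs (14.5 and 12.9 CPM), and those intervals overlapped. Of the 140 *CRYAB* UMIs in all 23237 ferret cells, the non-cycling RG-like cells held 77 and the cycling ones 29. In the mouse control, RG-like and cycling RG-like cells together held 221 of the 285 *Cryab* UMIs, and the few Cajal-Retzius-like cells, highest by level, held 24. Most *Cryab* UMIs thus lay in RG-like cells in both species.

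The receptors *LIFR* and *IL6ST* were highest outside RG-like cells in the ferret too. Cluster 21 held 112 and 105 CPM of *LIFR* and 130 and 118 CPM of *IL6ST* in sets 1 and 2, with a UMI of *LIFR* in 42.6% and 37.5% of its cells. RG-like cells held 9.06 and 14.1 CPM of *LIFR* and 28.6 and 38.8 CPM of *IL6ST*. Endothelium is a known site of gp130 signalling, and cluster 21 had as many endothelial as mural markers.

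Against ferret PyN-like cells, 6 of the 7 members with at least 50 UMIs were at least 2-fold higher in RG-like cells, where 16.0% of all genes were. The ratio was 64.8 for *HOPX* (53.6 to 79.1), 19.8 for *TNC* (16.7 to 23.5), 4.59 for *PTPRZ1* (4.29 to 4.92) and 2.59 for *IL6ST* (2.02 to 3.32). *MOXD1* had 109 UMIs against 2 (ratio 146, 39.3 to 1217) and *CRYAB* 77 against 2 (ratio 103, 27.5 to 864). Both reached the UMI minimum only through RG-like cells, so their place in the count follows from that filter. *LIFR* did not differ beyond counting error, at 46 against 108 UMIs (ratio 1.14, 0.787 to 1.62). The ferret PyN-like class was clusters 11, 13 and 17 alone (1891 cells), with *FEZF2* and *BCL11B* among the markers of each. Clusters with the PyN markers *UNC5D*, *CUX2* or *RORB* had too few markers to be named and were left out. *PTPRZ1* stood at 132 CPM in the PyN-like class and at 88.1 CPM (cluster 14) to 700 CPM (cluster 4) in those unnamed clusters. The ratios to PyN-like cells thus hold for that class only. Against all other ferret cells 14.2% of genes were past the fold, with ratios of 29.3 for *HOPX*, 15.2 for *TNC*, 2.36 for *PTPRZ1* and 48.4 for *CRYAB*.

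The question of the mouse comparison was how these genes stand in RG cells that lack SHH-SMO function. In RG-like cells pooled over clusters 4 and 5, *Hopx* and *Tnc* were higher in the Smo-cKO, while *Ptprz1*, *Il6st* and *Cryab* differed little. Within clusters 4 and 5 the *Ptprz1* ratio was 0.724 and 0.851. In cluster 5 alone no member passed 1.5-fold, with ratios of 1.40 for *Hopx* and 1.24 for *Tnc*. Of the 6 members reaching 50 UMIs over both libraries, 3 (*Hopx*, *Tnc* and *Lifr*) were at least 1.5-fold higher, where 6.53% of 10649 genes were, and 0 were at least 1.5-fold lower, where 4.93% were. The study itself reported *Hopx* as upregulated in RG cells of these libraries. The members were chosen with earlier results of these data known, so the count is no independent evidence. The median log2 ratio over all those genes was 0.0065. The 2 libraries differed in makeup, with 57.9% of control RG-like cells in cluster 4 and 54.7% of Smo-cKO RG-like cells in cluster 5, and in depth, with a median of 4526 and 6833.5 UMIs. Genotype and library cannot be told apart in this design.

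*Hopx* had 4473 UMIs in control and 8447 UMIs in Smo-cKO RG-like cells. Its level was 610 CPM in the control and 977 CPM (956 to 998) in the Smo-cKO, a ratio of 1.6 (1.54 to 1.66). Per cell, the median was 1 UMI in the control and 4 in the Smo-cKO, the highest cell held 39 and 85 UMIs, and 7.96% and 26.6% of the cells held at least 10. The share of cells with a UMI was 62.9% and 83.6%. Computed for 2900 UMIs in every cell deep enough (1324 control and 1147 Smo-cKO cells), the shares were 53.7% and 71.5%, so the gap in shares was narrower at equal depth and kept its direction.

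*Tnc* followed *Hopx* closely. It had 3003 UMIs in the control and 5513 UMIs in the Smo-cKO, or 410 and 638 CPM (621 to 655), a ratio of 1.56 (1.49 to 1.63). The median cell held 1 UMI in the control and 3 in the Smo-cKO, and 2.81% and 14.3% of cells held at least 10. The shares with a UMI were 61.3% and 81.6%, and 51.3% and 66.0% at 2900 UMIs.

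*Ptprz1*, the receptor for the tenascins, went the other way by a small amount. It had 12599 UMIs in the control and 13886 UMIs in the Smo-cKO, or 1719 and 1606 CPM (1579 to 1633), a ratio of 0.934 (0.912 to 0.957). The shares of cells with a UMI were 94.6% and 94.5%, and 89.8% and 85.4% at 2900 UMIs. The matrix ligand and the receptor thus differed in opposite directions between the libraries, and of the pair *Tnc* alone passed the fold.

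The sparse members differed within or near counting error. *Cryab* had 160 and 206 UMIs (21.8 and 23.8 CPM, ratio 1.09, 0.884 to 1.35), and its shares of 7.63% and 12% were 4.82% and 5.73% at 2900 UMIs. *Il6st* had 115 and 125 UMIs (15.7 and 14.5 CPM, ratio 0.922, 0.710 to 1.20). *Lifr* had 30 and 57 UMIs (4.09 and 6.59 CPM), and its ratio of 1.61 had an interval of 1.02 to 2.60, so its place among the 3 members past the fold rests on few UMIs. *Lifr* also reached the UMI minimum only through the Smo-cKO. *Moxd1* had 14 and 26 UMIs and *Fam107a* 0 and 1, below the minimum.

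**Figure D3:**
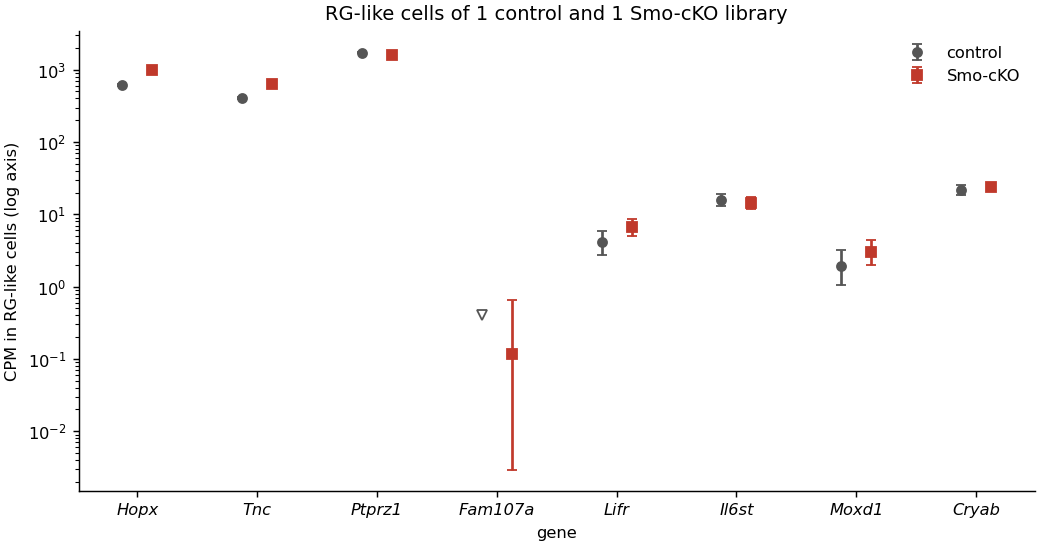
Level of each gene in mouse RG-like cells of the control and the Smo-cKO library (CPM, log axis, 1 library each, bars are exact 95% counting intervals, and the open triangle is the level that 0 UMIs of *Fam107a* in the control allow). *Hopx* and *Tnc* are higher in the Smo-cKO with intervals that do not overlap, and *Ptprz1* is slightly lower.

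The 2 RG-like clusters were unlike each other in the level of all 3 abundant members. Cluster 4 was led by *1500015O10Rik*, *Mt1*, *Mt2* and *Gfap* and carried 4 of the 12 RG markers, and cluster 5 was led by *Aldoc*, *Fabp7* and *Cspg5* and carried 10. In the control *Hopx* stood at 440 CPM in cluster 4 and 857 CPM in cluster 5, *Tnc* at 161 and 769 CPM, and *Ptprz1* at 923 and 2870 CPM. *Cryab* had the opposite order, at 27.7 and 13.4 CPM. Each cluster was therefore also read on its own.

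Within each cluster *Hopx* and *Tnc* remained higher in the Smo-cKO, by different amounts. *Hopx* was 723 CPM in cluster 4 of the Smo-cKO (ratio 1.64, 1.55 to 1.74) and 1203 CPM in cluster 5 (1.40, 1.34 to 1.47). *Tnc* was 284 CPM in cluster 4 (1.76, 1.6 to 1.94) and 952 CPM in cluster 5 (1.24, 1.18 to 1.30). *Ptprz1* was lower in both, at 668 CPM in cluster 4 (0.724, 0.689 to 0.760) and 2441 CPM in cluster 5 (0.851, 0.827 to 0.875). *Ptprz1* thus differed more within each cluster than in the pooled cells. In cluster 5 alone 0 members were past 1.5-fold, in cluster 4 alone 2 were (*Hopx* and *Tnc*), where 6.49% and 5.27% of all genes were higher. Neither cluster had a member past the fold downwards (0), where 5.10% of genes in cluster 5 and 5.04% in cluster 4 were lower.

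Further measures that moved with these results concern other cells and states. The counts stand beside 6.53% of all 10649 tested genes at least 1.5-fold higher and 4.93% lower. Among RG-like cells, the summed level of the 8 bMIPC and oligodendrocyte lineage markers was 166 CPM in the control and 115 CPM in the Smo-cKO, with 3 of the 5 tested ones lower (*Olig2* ratio 0.117, *Egfr* 0.212, *Olig1* 0.267). Of 11 tested cycling markers 9 were lower, led by *Nusap1* (0.453), *Ung* (0.570) and *Gins2* (0.574), with a sum of 319 and 206 CPM. Of 11 tested PyN markers 4 were lower, led by *Neurod6* (0.547), *Neurod2* (0.609) and *Tbr1* (0.636), with a sum of 411 and 407 CPM. The 10 microglia markers summed to 3.82 and 8.33 CPM, none had 50 UMIs, and *P2ry12* was at 0 in both. Of 8 tested dissociation and stress genes 3 were lower (*Egr1* 0.493, *Fosb* 0.512, *Ier2* 0.606). Of 3 tested astrocyte markers *Aqp4* was higher (3.20), of 12 RG markers *Aldoc* (1.59), and of 4 tested ependymal markers 0 passed. The part of these in the differences of *Hopx* and *Tnc* was not tested.

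Cells of 4000 to 7000 UMIs in both libraries gave a ratio of 1.65 for *Hopx* and 1.34 for *Tnc*. Cells with 2 or more UMIs of *Neurod2*, *Neurod6* and *Tbr1* made up 95 of 1495 control and 44 of 1182 Smo-cKO RG-like cells. Without them the ratio was 1.51 for *Hopx* and 1.5 for *Tnc*. Without the shared barcodes it was 1.6 and 1.56.

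In cycling RG-like cells (1038 control, 495 Smo-cKO) *Hopx* differed more than in non-cycling ones. *Hopx* was 544 CPM in the control and 1046 CPM in the Smo-cKO (ratio 1.92, 1.84 to 2.00), and *Tnc* 481 and 777 CPM (1.62, 1.54 to 1.69). *Cryab* had 61 and 71 UMIs there, or 8.27 and 14.5 CPM (1.76, 1.23 to 2.52), although its shares at 2900 UMIs were 2.22% and 3.80%. *Ptprz1* was 1824 and 1610 CPM (0.883, 0.858 to 0.908). These were 3 of the 5 tested members past the fold upwards, where 4.69% of genes were, and 0 downwards, where 7.69% were.

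*Hopx* and *Tnc* were higher in the Smo-cKO in progenitor classes beyond RG-like cells as well. In the cycling bMIPC- and oligodendrocyte lineage-like clusters (1409 control, 322 Smo-cKO cells) *Hopx* was 118 CPM in the control and 490 CPM in the Smo-cKO (ratio 4.14, 3.83 to 4.48), with a UMI in 26.6% and 59.9% of cells. *Tnc* was 52.3 and 101 CPM (1.93, 1.67 to 2.22). These were 2 of 4 tested members, where 5.75% of genes were higher, and 0 were lower, where 6.07% were. The difference in *Hopx* held in each of the 3 clusters of the class, at 91.6 and 431 CPM in cluster 7, 161 and 778 CPM in cluster 11, and 126 and 237 CPM in cluster 12. The last holds G2/M genes such as *Cdc20* and *Ccnb1*.

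*Ptprz1* in these same clusters ran against its direction elsewhere. It was 455 CPM in the control and 533 CPM in the Smo-cKO (ratio 1.17, 1.11 to 1.24), higher in clusters 7 (457 and 599 CPM) and 11 (399 and 535 CPM) and lower in cluster 12 (508 and 409 CPM).

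In IPC-like cells *Tnc* had 35 and 82 UMIs (7.89 and 18.8 CPM, ratio 2.39, 1.59 to 3.65), *Hopx* was 87.7 and 120 CPM (1.37, 1.20 to 1.56), and *Ptprz1* 146 and 112 CPM (0.768, 0.681 to 0.865). This was 1 of 3 tested members past the fold upwards, where 6.52% of genes were. In PyN-like cells *Hopx* was 17.5 and 26.4 CPM (1.51, 1.27 to 1.79), the single one of 4 tested members past the fold, where 3.92% of genes were, and *Ptprz1* was 112 and 85.9 CPM (0.765, 0.708 to 0.827). PyN-like cells held *Hopx* in 5.43% and 9.42% of cells, or 4.12% and 6.77% at 2900 UMIs, and the part of free RNA in these shares was not tested.

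Unnamed cluster 8 (393 control, 262 Smo-cKO cells) had the same directions, with *Hopx* at 364 and 753 CPM (2.07, 1.90 to 2.25), *Tnc* at 286 and 488 CPM (1.71, 1.54 to 1.89) and *Ptprz1* at 1273 and 1139 CPM (0.895, 0.844 to 0.948). Its share of cells with a UMI of *Ptprz1* was 94.7% in the control and 69.5% in the Smo-cKO, with median depths of 5925 and 2792.5 UMIs, and 87.5% and 79.9% at 2900 UMIs. Unnamed cluster 2, led by *Eomes*, an IPC gene, held 32.1 and 51.0 CPM of *Hopx* (1.59, 1.26 to 2.01). Unnamed cluster 18, 75 cells led by *Cxcl10* and *Chac1*, genes of interferon and endoplasmic reticulum stress responses, held 96.8 and 221 CPM of *Hopx* and 43.0 and 280 CPM of *Tnc*, the last from 8 and 47 UMIs. In inhibitory neuron-like cells *Ptprz1* had 100 and 132 UMIs and a ratio of 0.978 (0.749 to 1.28).

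Microglia-like cells also carried *Hopx*, in 1 of their 2 clusters above all. *Hopx* was 50.5 CPM in the control and 204 CPM in the Smo-cKO (50 and 375 UMIs, ratio 4.05, 3.01 to 5.55), 1 of 3 tested members, where 13.2% of genes were higher. Cluster 17, led by *Ifi27l2a*, *Plac8* and *Saa3*, held 230 and 466 CPM and cluster 16, led by *Spp1* and *C1qa*, 7.50 and 39.9 CPM. Cluster 17 had 25 of the 97 control cells and 100 of the 176 Smo-cKO cells, so the pooled ratio includes this shift in makeup. *Hopx* was also higher in the Smo-cKO within each cluster, which the shift does not cover. *Tnc* and *Ptprz1* were low in cluster 17, at 0 and 8.47 CPM and at 73.1 and 25.4 CPM. In the pooled microglia-like cells *Tnc* had 0 UMIs in the control and 18 in the Smo-cKO, below the UMI minimum. *Ptprz1* was nearly equal there, at 27.3 and 26.7 CPM. Whether *Smo* was deleted in microglia-like cells, and the part of free RNA in these values, was not tested.

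**Figure D4:**
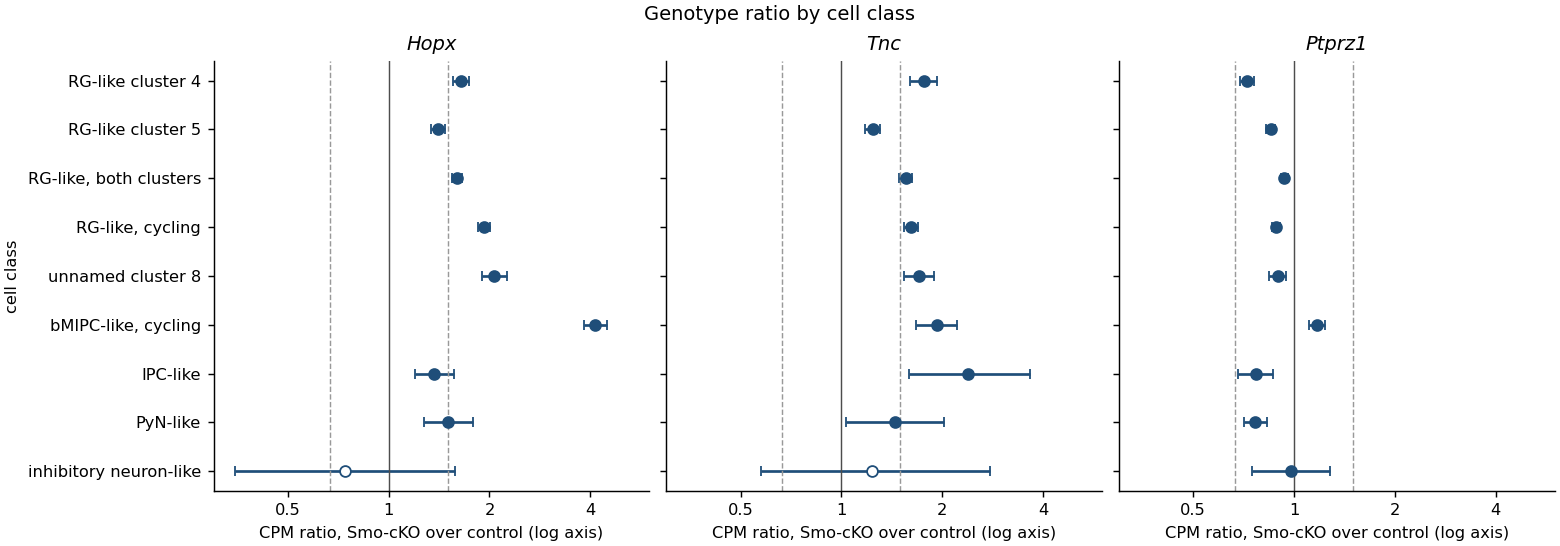
Smo-cKO over control CPM ratio (x axis, log scale) of *Hopx*, *Tnc* and *Ptprz1* in RG-like clusters and other mouse classes (rows), with exact 95% counting intervals, a line at a ratio of 1, dashed lines at 1.5-fold in either direction and open points under 50 UMIs. *Hopx* and *Tnc* lie to the right of the line in RG-like cells (1.6 and 1.56), and *Ptprz1* lies clearly to the right only in the cycling bMIPC- and oligodendrocyte lineage-like cells (1.17).

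The 3 abundant members were often found in the same RG-like cells. All of *Hopx*, *Tnc* and *Ptprz1* had a UMI in 611 of 1495 control cells (40.9%) and 796 of 1182 Smo-cKO cells (67.3%), and none of them in 2.21% and 0.846%. In the ferret all of them had a UMI in 34.6% of RG-like cells in set 1 and 43.6% in set 2. Cells with *Hopx* more often held *Tnc* than cells without it, in 66.2% against 53.0% of control cells, 83.0% against 74.7% of Smo-cKO cells, and 58.3% against 37.1% and 65.8% against 54.6% of the ferret sets. Cells with a UMI of a gene were also deeper, with a median of 4588 against 4434 UMIs for *Hopx* in the control and 2959 against 2410.5 in ferret set 1. The single shares of *Hopx*, *Tnc* and *Ptprz1* were 62.9%, 61.3% and 94.6% in the control and 83.6%, 81.6% and 94.5% in the Smo-cKO. High single shares alone give frequent joint detection, and their part in it was not tested. Mouse clusters 4 and 5, unlike in the level of all of them, enter these pooled shares.

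Control cells with *Cryab* held *Hopx* and *Tnc* less often. The 114 control RG-like cells with a *Cryab* UMI held *Hopx* in 50% and *Tnc* in 48.2%, and the 1381 cells without it in 63.9% and 62.3%, although the cells with *Cryab* were deeper (medians of 5566 and 4477 UMIs). *Il6st* had a UMI in 10.5% of the cells with *Cryab* and 7.17% of those without, and *Lifr* in 3.51% and 1.88%. These shares rest on only 12 and 4 cells with *Cryab*, and the part of the greater depth in them was not tested. Cluster 4, which was higher in *Cryab* and lower in *Hopx* and *Tnc* than cluster 5, enters these pooled shares. In the Smo-cKO the shares of *Hopx* were 83.8% and 83.6%. In the ferret, no RG-like cell held both *CRYAB* and *MOXD1*, at 0 of the 22 *CRYAB* cells in set 1 and 0 of 28 in set 2, which allows shares of up to 13.6% and 10.7%, where 7.71% and 12% of the cells without *CRYAB* held *MOXD1*. These limits read a count of 0 as at most 3 and are rougher than an exact interval. The shares without *CRYAB* lie too near them for a statement either way. All pairs of the 8 genes were computed and the ferret cells come from 1 embryo, so this describes the pair and is no test. In the mouse, 0 of 142 Smo-cKO cells with *Cryab* held *Moxd1* (up to 2.11%), where 2.12% of the cells without it did, and in the control the shares were 0.877% and 0.941%.

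**Figure D5:**
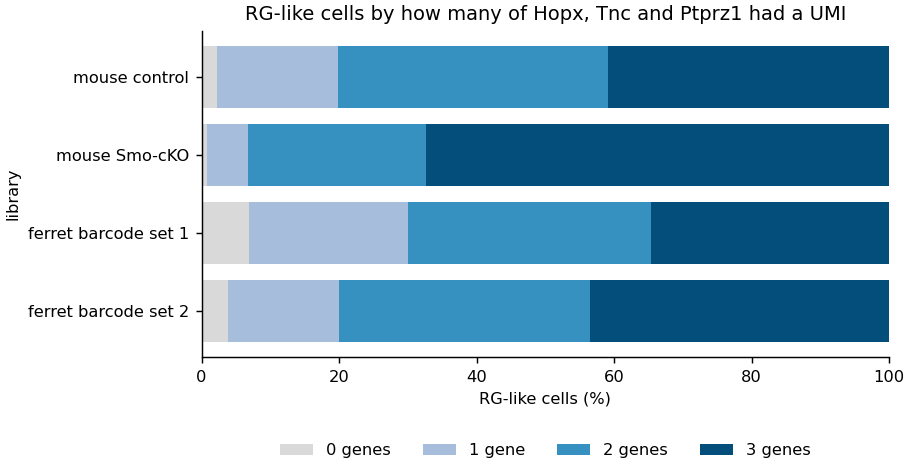
Share of RG-like cells (percent) with a UMI of none, 1, 2 or all of *Hopx*, *Tnc* and *Ptprz1* in each mouse library and each ferret barcode set. All 3 were found in 40.9% of control and 67.3% of Smo-cKO cells, and in 34.6% and 43.6% of ferret cells.

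Genes that work with the members were taken from lists of their pathways. The counts below stand beside these shares of all tested genes. In RG-like cells 6.53% were at least 1.5-fold higher in the Smo-cKO and 4.93% lower, and in cycling RG-like cells 4.69% and 7.69%. At least 2-fold higher in RG-like than in PyN-like cells were 17.7% in the control and 16.0% in the ferret. Of the 10 gp130 receptors and transducers 6 were tested between the genotypes in RG-like cells and 0 passed the fold in either direction, with a list median log2 ratio of -0.09. *Stat3*, the transcription factor of the pathway, stood at 28.0 CPM in the control and 32.3 CPM in the Smo-cKO, and *Cntfr*, a receptor that joins gp130 and *Lifr*, at 104 and 88.0 CPM. In cycling RG-like cells 2 of 6 were higher and 0 lower, *Stat3* at 13.3 and 21.7 CPM (ratio 1.63, 1.23 to 2.17) and its feedback inhibitor *Socs3* at 9.90 and 14.9 CPM (1.51, 1.08 to 2.12). In the control *Cntfr* (ratio 9.33) and *Stat3* (3.96) were at least 2-fold higher in RG-like than in PyN-like cells, and in the ferret *CNTFR* (3.76) and *STAT3* (4.45) were.

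Of 12 partners of tenascin C and *Ptprz1*, 10 were tested, 1 was higher and 2 were lower, with a median log2 ratio of 0.01. *Bcan*, brevican, a matrix proteoglycan that binds tenascins, was 112 CPM in the control and 264 CPM in the Smo-cKO (ratio 2.35, 2.17 to 2.54). *Itgb8*, an integrin chain, was 72.8 and 47.2 CPM (0.648, 0.568 to 0.738), and *Vcan*, versican, was 28.2 and 18.5 CPM (0.655, 0.530 to 0.809). *Ptn*, the ligand pleiotrophin, was 5731 and 8536 CPM, a ratio of 1.49 (1.47 to 1.51) just under the fold. In cycling RG-like cells 3 of 10 partners were higher and 3 lower. In the control 5 of 10 were at least 2-fold higher in RG-like than in PyN-like cells and 2 lower, and in the ferret 6 of 11 and 3.

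Of 15 other outer RG genes 12 were tested, 4 were higher and 0 lower, with a median log2 ratio of 0.33. *Dio2*, which activates thyroid hormone, was 16.6 CPM in the control and 76.1 CPM in the Smo-cKO (ratio 4.57, 3.76 to 5.59). *Bmp7*, a bone morphogenetic protein, was 8.87 and 16.4 CPM (1.85, 1.37 to 2.52). *Lgals3bp* was 2.46 and 5.78 CPM (2.36, 1.35 to 4.29). With 18 and 50 UMIs, *Lgals3bp* reached the UMI minimum only through the Smo-cKO. The study drew part of this list from outer RG cells and named *Bmp7* for these libraries, so the count is no independent evidence. In cycling RG-like cells 3 of 11 were higher and 1 was lower, *Itgb5*, an integrin chain (27.4 and 15.6 CPM, ratio 0.568, 0.430 to 0.743). In the control 11 of 11 tested were at least 2-fold higher in RG-like than in PyN-like cells, and in the ferret 9 of 10. Over all genes the shares were 17.7% and 16.0%. *Ednrb*, in both counts, is also on the list of RG markers that named the clusters. Its place in the mouse count follows in part from that naming.

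Of 12 other truncated and ventricular RG genes 9 were tested, 2 were higher and 0 lower, with a median log2 ratio of 0.45. They were *Hspb8*, a small heat shock protein (3.82 and 15.0 CPM, ratio 3.94, 2.60 to 6.15), and *Gpx3*, a secreted peroxidase (5.32 and 9.95 CPM, 1.87, 1.27 to 2.80). In the control 6 of 8 were higher in RG-like than in PyN-like cells and 2 lower, and in the ferret 4 of 5 and 0. Of 6 small heat shock proteins, the family of *Cryab*, 2 were tested and both were higher, *Hspb8* and *Hspb6* (42.1 and 67.5 CPM, 1.6, 1.39 to 1.85), with a median log2 ratio of 1.20. In cycling RG-like cells 3 of 9 genes of the truncated and ventricular list were higher and 2 were lower, *Cxcl12*, a chemokine (7.46 and 3.27 CPM, ratio 0.439, 0.235 to 0.778), and *Palld*, an actin-binding protein (15.5 and 9.82 CPM, 0.636, 0.444 to 0.898).

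The genes whose levels over clusters were most like those of each member were taken by Pearson correlation of log2(CPM + 10), over 23 mouse clusters and 7023 genes or 26 ferret clusters and 7426 genes. Clusters share libraries and depth, so these are descriptions. For *Hopx* they were *Egln3* (r = 0.91), *Notch2* and *Ptgfrn*, for *Tnc* *Ccdc80* (r = 0.98), *Etl4* and *Mlc1*, and for *Ptprz1* *Fabp7* (r = 0.94), *Asrgl1* and *Bcan*. For *Moxd1* they were *S100b* (r = 0.96), *Pcdh15* and *Gpr17*. *Lifr* was most like *Arsa*, *Pcca* and *Col23a1*, *Il6st* like *Fads3*, *Itpripl2* and *Gbp7*, and *Cryab* like *Pdgfa* (r = 0.84), *Tex264* and *Samd4*. In the ferret *HOPX* was most like *SPINK2* (r = 0.96), LOC123392801 and *MAST4*, *TNC* like *TTYH1* (r = 0.90), *HEPACAM* and *GLDC*, and *PTPRZ1* like *FABP7* (r = 0.81), *FAM3C* and *SHC3*. *LIFR* was most like *CMTM8*, *GRB10* and *PDE7B*, *IL6ST* like *TMEM184B*, *SEPTIN2* and *FNDC3B*, and *MOXD1* like LOC101691886, *LRIG3* and *SEPTIN7*. *Fabp7*, an RG gene for a fatty acid-binding protein, was the closest gene to *Ptprz1* in both species.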

How the data were processed

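Single-cell RNA-seq libraries of E18 mouse cortex (1 control, 1 Smo-cKO) and E39 ferret cortex (1 embryo) were read from the deposited tables, which hold UMI counts per gene and cell that the authors made with Cell Ranger. The submitters' processing notes also name StringTie, Seurat 3 and mm10. The build and annotation behind the ferret table were not given in the sources used here. Reads shared by overlapping or near-identical genes, and how the counting used strand, could not be checked from the tables. No columns of per-sample values were left unused (0).

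The tables held 18120 mouse and 23482 ferret cells. Column names carry a barcode suffix and no sample name, so a suffix was taken as a genotype where its number of barcodes equals the cell number the methods state for that genotype. The 2 ferret suffixes are called barcode sets. The deposited totals were 52287727 UMIs in the control, 43283675 in the Smo-cKO, 30574227 in ferret set 1 and 56361053 in set 2. Cells with 750 to 5000 genes and under 10% mitochondrial UMIs were kept, and no doublets were removed.

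Libraries or sets were joined by anchor integration in Seurat 5.3.0 (R 4.3.3) with 2000 variable genes, 30 dimensions and a resolution of 0.8, without the 8 genes. A cluster was named from a list of markers when at least 3 were at least 1 higher on the log2(CPM + 10) scale than in all other cells and had a UMI in 10% of its cells, unless its 10 leading genes went against the name. Names rebuilt this way can differ from those of the study. UMIs were summed over the cells of a class and given as CPM of the summed UMIs. Intervals (95%) are exact Poisson for CPM, conditional binomial for ratios and Clopper-Pearson for shares, computed with scipy 1.17.1, numpy 2.4.6 and pandas 2.3.3 in Python 3.11.15. A count of 0 was read as at most 3. A gene counted as past the fold at 1.5-fold between genotypes or 2-fold between cell types, with at least 50 UMIs in both sides together. A gene could reach that minimum through a single side. Shares at equal depth were computed for 2900 UMIs per cell (2000 in the ferret), leaving out shallower cells. List medians are of log2 ratios of CPM + 1. The computation was tested on simulated data.

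The members and gene lists were chosen with earlier results of these data known. All 8 members were named whatever their values, with at most 3 genes of each list in each direction past the fold between genotypes in RG-like cells, and for each member the 3 genes of highest correlation over clusters among genes reaching 50 CPM in a cluster. Other genes in the text were named as leading genes of a cluster, as partners of a member or as list genes past the fold in cycling RG-like cells after their values were seen. Mouse coordinates come from the GENCODE M21 annotation of GRCm38, the assembly also called mm10. No ferret coordinates are given. Some genes of the lists are not reported here. The alternatives covered integration, resolution, the definition of RG-like cells, scaling, the UMI minimum, the fold and the filter on cells.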

Additional observations from a re-analysis of the deposited data

Results flagged for a closer look

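*Ptprz1* differed in opposite directions between the mouse libraries in different cell classes. Its Smo-cKO over control CPM ratio was 1.17 (exact 95% counting interval 1.11 to 1.24) in cycling bMIPC- and oligodendrocyte lineage-like cells. Within that class the ratio was above 1 in clusters 7 and 11 and below 1 in cluster 12. It was 0.934 (0.912 to 0.957) in RG-like cells, 0.883 (0.858 to 0.908) in cycling RG-like cells, 0.895 (0.844 to 0.948) in unnamed cluster 8, 0.768 (0.681 to 0.865) in IPC-like cells and 0.765 (0.708 to 0.827) in PyN-like cells. The difference between classes was not tested, since each genotype had 1 library.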

How the results depend on the processing

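The count of members at least 1.5-fold higher in Smo-cKO RG-like cells, 3 as reported, depended most on the settings. It was 1 after clustering without integration, 1 as a ratio of expected shares at 2900 UMIs per cell, 5 with no minimum of UMIs and 0 at a fold of 2. Among alternatives chosen after seeing the data, it was 0 in cluster 5 alone and 1 in RG-like cells of 4000 to 7000 UMIs. The cause was not tested, apart from the stricter fold and the lower minimum, which act by construction. The count of members at least 1.5-fold lower was 0 in all 19 alternatives. The count of members at least 2-fold higher in RG-like than in PyN-like cells was 4 to 7 in the mouse control (5 as reported) and 3 in ferret barcode set 1 alone (6 as reported), where 4 members had enough UMIs. At a resolution of 0.4 the ferret had no non-cycling RG-like cluster, so that count was not made.

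Over 16 alternatives each, the ratio was 1.33 to 1.85 for *Hopx*, 1.24 to 1.76 for *Tnc*, 1.17 to 2.23 for *Lifr* and 1.04 to 1.49 for *Cryab*, always above 1, and 0.724 to 0.956 for *Ptprz1*, always below 1. It was 0.735 to 1.06 for *Il6st* and 0.798 to 2.17 for *Moxd1*, so the side of 1 changed for both. These ranges include the ratio of expected shares at 2900 UMIs per cell, which is not a CPM ratio. Requiring 2 UMIs per cell lowered 30 of 32 shares of cells beyond their intervals. No paired analysis was possible because each genotype had 1 library and no test was made.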
